A study of Anas platyrhynchos with 8 samples.

Results

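Immediate early, GADD45 and heat shock genes were followed in abdominal fat of ducks (Anas platyrhynchos) with a high (HF) or a low (LF) abdominal fat rate. The set was a list of 40 gene symbols, and the members were the rows of the mRNA table that carry one of them, with the estimated counts summed per symbol. Rows were found for 30 symbols of the 13213 in the table, spread over 50 of its 48592 transcripts: 17 immediate early genes, 3 GADD45 genes, 7 chaperones of the cytosol and 3 genes of stress in the endoplasmic reticulum (ER). CCN1 and CCN2 stand in the table under their older names CYR61 and CTGF. FOSB, JUNB, IER2, ZFP36, DNAJB1, HSPA5, DDIT3 and XBP1 were not analysed here.

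All birds came from an F2 population kept under the same conditions with free access to feed and water, and the fat was taken on day 42 after hatching. There were 4 HF and 4 LF libraries of total RNA, numbered as in the labels, and the comparison asked which of these genes differ with fat deposition. Whether a library holds 1 bird or a pool is not stated, and neither sex nor batch is in the labels. The p-values therefore speak of the spread among these libraries, which may be technical. In bulk tissue, fewer cells of a type and less RNA per cell cannot be told apart.

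Immediate early genes are transcribed within minutes of a growth factor, hormone, stretch or stress signal, without new protein synthesis, and most of their mRNAs and proteins are short-lived. Many encode transcription factors, and others, such as DUSP1 and SOCS3, shut the signal down again. In mouse preadipocyte lines, several of them are induced early after the hormones that start fat cell formation are added. The GADD45 proteins are small stress sensors that bind kinases and cell cycle regulators, while heat shock proteins fold other proteins under the control of heat shock factors, and a separate set of ER chaperones answers to the unfolded protein response.

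The mRNA table held between 12696240 (LF-1) and 30836178 (LF-2) estimated counts per library, with HF-2 at 13244545 the second shallowest. All 10 adipocyte markers were present, and their summed level was 34934.7 to 51500 CPM (counts scaled to the library's size) in HF and 46959.6 to 89229.4 in LF. By gene they were split, with 4 higher and 6 lower in HF. Their log2 fold changes, HF against LF, ran from -1.16 (PNPLA2) to 2.29 (DGAT2), with a median of -0.0078. Summed macrophage markers ran from 583.9 to 841.7 against 513.9 to 646.8 CPM, lymphocyte markers from 80.9 to 142 against 50 to 74.9, heterophil and mast cell markers from 24.7 to 47.9 against 20.7 to 31.2, and stromal markers from 8631.5 to 14629.5 against 4966.2 to 14742.9. Erythroid markers ran from 189.2 to 665.4 against 233.5 to 537.8 CPM, and skeletal muscle markers from 9.79 to 70.4 against 5.31 to 164.1, the highest being LF-3. The 13 mitochondrial genome symbols took 4.41% of the counts in LF-1 and 1.45% to 2.16% in the other libraries. The 8 transcripts described as W-linked, W being the chromosome that only female birds carry, summed to 1818 to 4226 counts in HF, to 3 to 8 counts in LF-1 to LF-3 and to 2861 in LF-4, so that LF-4 was the only LF library that held them.

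Among the 29 members that passed the filter on low counts, 1 passed the test and was lower in HF (GADD45G), and 0 were higher. The test was edgeR's quasi-likelihood test with Benjamini-Hochberg adjustment over all 10511 genes, at an adjusted p under 0.05. Over all genes 0.647% were called, 0.352% lower and 0.295% higher in HF. Without adjustment, 6 members were lower and 2 higher at p under 0.05, beside 7.51% and 7.49% of all genes, and DESeq2 called 4 members lower and 1 higher, beside 2.69% and 2.82% of all genes. The HF and LF libraries did not overlap for 5 members that were lower in HF (MYC, NR4A2, ATF3, GADD45A and GADD45G) and for 1 that was higher (HSPA2), where 4.64% and 4.55% of all genes did so. The median log2 fold change, HF against LF, was -0.18 over the 29 members, with 19 below 0, and 0.0012 over all genes, of which 49.8% were below 0. EGR2, a zinc finger factor, did not pass the filter, with 4, 0, 53 and 9 estimated counts from HF-1 to HF-4 and 10, 7, 7 and 1 from LF-1 to LF-4.

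**Figure D1:**
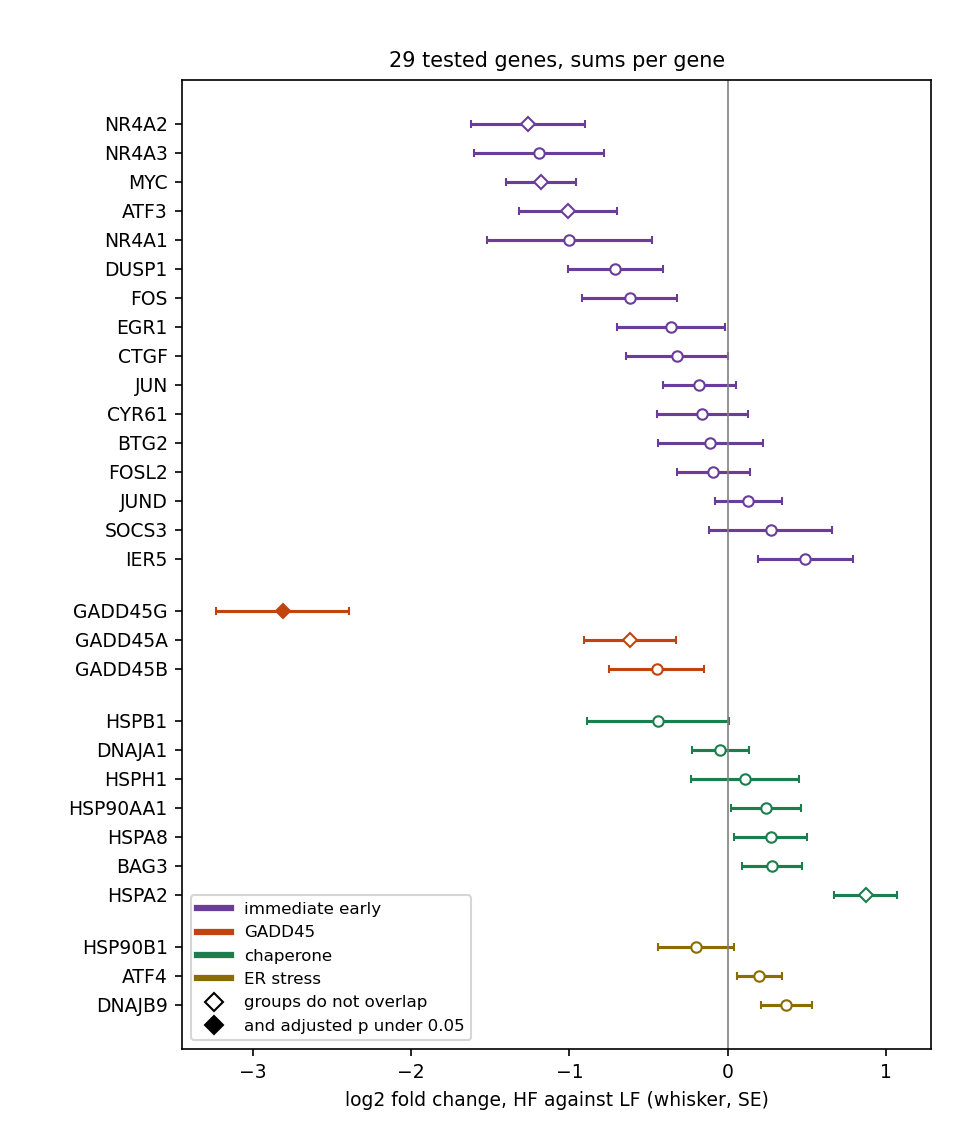
Log2 fold change of HF against LF for the 29 tested genes, grouped into 4 classes, with the standard error as whisker; open diamonds mark genes whose groups do not overlap and the filled diamond the 1 gene with an adjusted p under 0.05. GADD45G lies at -2.81, apart from the immediate early genes, which run from -1.26 to 0.49, while HSPA2 is highest at 0.87.

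The 4 classes lay on different sides of 0. Of 16 tested immediate early genes 13 had a negative log2 fold change (median -0.34), and all 3 GADD45 genes did (median -0.62). Of the chaperones 5 of 7 were positive (median 0.24), as were 2 of the 3 ER stress genes (median 0.20). Differences between classes were not tested.

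Levels per length, in FPKM, spanned the range from HSP90AA1 to EGR2. The mean over the 8 libraries was 656.5 FPKM for HSP90AA1, 473.7 for HSPA2 and 458.6 for HSPA8. The CTGF sum, which holds a CTGF-like row beside that of CCN2, followed at 252.7 FPKM. Next came HSP90B1 at 145.0, ATF4 at 124.4, JUN at 117.4, DUSP1 at 110.1 and CYR61 at 102.7 FPKM. These neighbours overlapped in their libraries: JUN ran from 83.3 to 176.7 FPKM and DUSP1 from 49.8 to 155.3. At the lower end of the scale GADD45B stood at 6.99, GADD45G at 6.84, GADD45A at 3.68, NR4A1 at 3.21, IER5 at 1.38, NR4A2 at 0.759 and EGR2 at 0.343 FPKM. In FPKM the groups did not overlap for HSPA2, MYC, GADD45G and NR4A2. The share of all genes without overlap was not computed in FPKM, so these genes have no background in that unit. GADD45A and ATF3, whose CPM did not overlap, overlapped in FPKM.

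**Figure D2:**
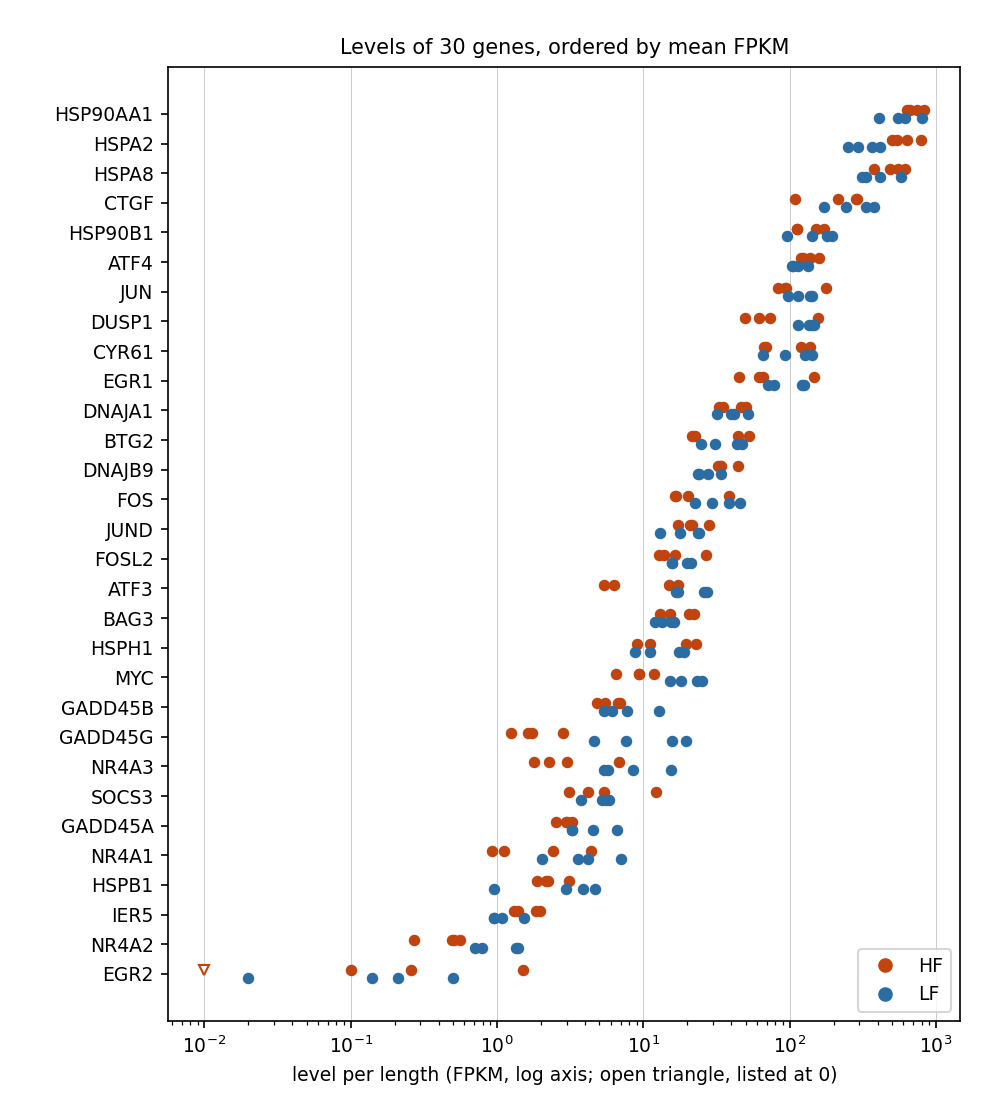
Level per length of the 30 genes in each library, in FPKM on a log axis, ordered by the mean over the 8 libraries, with HF and LF as separate colours and an open triangle for a library listed at 0. The chaperones HSP90AA1, HSPA2 and HSPA8 lead, at means of 656.5, 473.7 and 458.6 FPKM, and EGR2 is lowest at 0.343.

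GADD45G, the member called lower in HF, encodes a stress sensor that activates the kinase cascade leading to p38 and JNK. Its level was 2.28, 1.75, 1.44 and 1.1 CPM from HF-1 to HF-4 and 8.28, 18.9, 5.24 and 13.7 CPM from LF-1 to LF-4, from 24 to 55 estimated counts per HF and 103 to 562 per LF library. Every LF library exceeded every HF library, and the LF libraries differed among themselves more than the HF libraries did. The log2 fold change was -2.81 ± 0.42 (SE, edgeR adjusted p = 0.0224). When each library in turn was left out, GADD45G passed in 5 fits of 8. The edgeR adjusted p rose to 0.0732 without HF-1, 0.0681 without HF-3 and 0.103 without HF-4, where 0.0189%, 0.132% and 0.0564% of all genes passed, and the share of all genes was 0.179% to 0.867% in the fits it passed. The log2 fold change stayed between -3.06 and -2.46 over the 8. The gene lies on chromosome Z of the reference, which male birds carry in a pair. LF-4, the LF library with the W-described transcripts, was at 13.7 CPM, 8.36 times the HF mean of 1.64 CPM. With a covariate for those transcripts, a fit that sets HF against LF-4 alone and assumes that it varies like the other libraries, the log2 fold change was -3.06 (edgeR adjusted p = 0.0482).

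GADD45G counts came from 2 transcript models. The assembled model was at 0.917, 1.13, 0.634 and 0.559 CPM in HF and 5.2, 10.4, 3.67 and 6.26 CPM in LF. The RefSeq model was at 1.38, 0.567, 0.815 and 0.559 CPM in HF and 2.8, 8.66, 1.51 and 7.61 CPM in LF. The groups did not overlap in either model, and neither passed the test over 23879 transcripts (edgeR adjusted p = 0.129 and 0.366). None of the 41 member transcripts tested passed it in the reported edgeR fit, where 4 of all transcripts (0.0168%) did. With so few called, 0 of 41 says little about the members. None passed with DESeq2's size factors, without the low-count filter, with the replicate block or with a library left out.

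GADD45A, which p53 activates after DNA damage, was at 3.07, 3.21, 3.1 and 2.58 CPM in HF and 6.84, 3.43, 3.29 and 4.9 CPM in LF. The groups did not overlap, but HF-2 at 3.21 and LF-3 at 3.29 nearly met, and the log2 fold change of -0.62 ± 0.29 (SE) did not pass (edgeR adjusted p = 0.356). It was -0.38 without LF-1, the highest LF library. GADD45B, which TGF-beta and NF-kappaB signals induce in mammals, was at 5.47, 4.6, 6.56 and 6.76 CPM in HF and 12.8, 6.19, 5.24 and 7.98 CPM in LF. Its groups overlapped, with a log2 fold change of -0.45 ± 0.30 (SE, edgeR adjusted p = 0.515), and of -0.14 without LF-1.

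The make-up of the family differed with GADD45G. It was 25%, 16.9%, 15.2% and 11.6% of the summed GADD45 FPKM from HF-1 to HF-4, and 28.2%, 67.6%, 34.5% and 55.9% from LF-1 to LF-4. In HF, GADD45B held the largest share of the 3 in all 4 libraries (55.4% ± 7.57 SD, n = 4). In LF, GADD45G led in LF-2 and LF-4 and GADD45B in LF-1 and LF-3. These shares were chosen after their values were seen and were not tested.

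**Figure D3:**
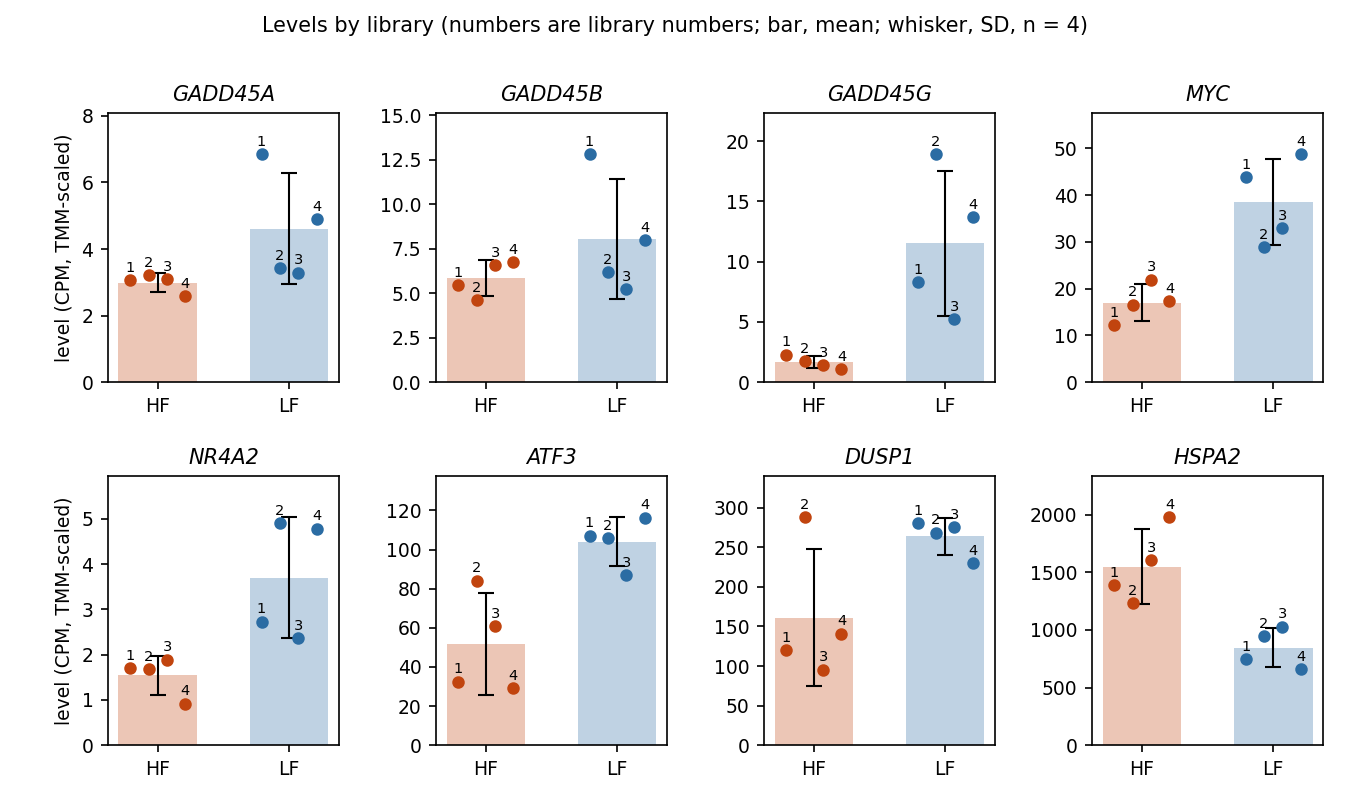
Levels of 8 genes in CPM with TMM scaling; each point is 1 library, labelled with its number, the bar is the group mean and the whisker the SD (n = 4). GADD45G, MYC, NR4A2, ATF3 and GADD45A are higher in every LF than in every HF library, HSPA2 is higher in every HF library, and DUSP1 is low in 3 HF libraries while HF-2 at 287.7 CPM exceeds all of LF.

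Of 14 tested partners and targets around the GADD45 genes (nucleotide excision repair, p53 targets and cell cycle regulators) 0 were called by edgeR. At an unadjusted p under 0.05, 2 were lower and 0 higher, beside 7.51% and 7.49% of all genes. A negative log2 fold change was found for 11 (median -0.23). XPA, the damage-binding subunit of excision repair, also on chromosome Z, averaged 14.8 ± 2.96 CPM in HF against 24.5 ± 7.36 in LF (SD, n = 4 each; edgeR adjusted p = 0.202). XPC, which recognises the lesion, was at 19 ± 3.88 and 26.8 ± 4.73 CPM (edgeR adjusted p = 0.267). The groups overlapped for both genes. For XPA only LF-4, the LF library with the W-described transcripts, lay within the HF range, at 14.8 CPM. LF-1 to LF-3 ran from 23.1 to 31.3 CPM, above every HF library. Whether the XPA difference goes with sex or with fat group was not tested. CDKN1A, the best known p53 target, did not pass the filter.

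Among the immediate early transcription factors outside AP-1, 5 of 6 tested were negative and the median was -1.09. MYC, the growth-promoting factor that drives ribosome and nucleotide synthesis, came closest to the threshold. It was at 12.2, 16.6, 21.9 and 17.3 CPM in HF and 43.8, 28.9, 33.0 and 48.7 CPM in LF. The groups were well apart, with the highest HF library at 21.9 and the lowest LF library at 28.9 CPM. The log2 fold change was -1.18 ± 0.22 (SE, edgeR adjusted p = 0.053). MYC passed in 1 of 8 fits that left out a library, without LF-2 (edgeR adjusted p = 0.0401), where 0.679% of all genes passed. The edgeR adjusted p rose to 0.151 without HF-4 and was 0.154 with a block for the library number. MYC also passed in limma on log2(FPKM + 1) (adjusted p = 0.0414), where 88 of 9810 genes passed. In DESeq2 it passed (adjusted p = 0.000153), where 2.69% of all genes were called lower. LF-4 was at 48.7 CPM, the highest of the 8.

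The NR4A genes encode orphan nuclear receptors that act without a ligand and respond to cyclic AMP and stress. NR4A2 was low throughout, at 1.7, 1.68, 1.89 and 0.92 CPM in HF and 2.73, 4.91, 2.37 and 4.78 CPM in LF. No HF library reached the lowest LF library, and the log2 fold change was -1.26 ± 0.36 (SE, edgeR adjusted p = 0.15; DESeq2 0.0313). NR4A3 was at 20.7, 58.1, 25.4 and 15.8 CPM in HF and 52.4, 105.3, 47.9 and 66.5 CPM in LF. Only HF-2 kept its groups from separating, and its log2 fold change of -1.19 ± 0.41 did not pass (edgeR adjusted p = 0.212). NR4A1 was at 2.07, 9.2, 5.3 and 2.48 CPM in HF and 4.42, 16.1, 7.38 and 9.6 CPM in LF, with overlapping groups (-1.0 ± 0.52, edgeR adjusted p = 0.401). In all 3 NR4A genes LF-2 was the highest LF library and HF-1 or HF-4 the lowest HF library.

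EGR1, a zinc finger factor induced by growth factors through the kinase ERK, was the most abundant transcription factor of this group. It was at 142.9, 443.8, 206.7 and 193.1 CPM in HF and 388.4, 255.4, 389.9 and 235.9 CPM in LF. HF-2 was the highest of all 8 libraries and the other 3 HF libraries were below all of LF. With every library the log2 fold change was -0.36 ± 0.34 (SE, edgeR adjusted p = 0.665), and it was -0.81 without HF-2. IER5, which in mammals binds heat shock factor HSF1, averaged 2.41 ± 0.473 CPM in HF against 1.72 ± 0.409 in LF (SD, n = 4 each), a log2 fold change of 0.49 ± 0.30 (SE, edgeR adjusted p = 0.488).

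AP-1 is the dimer of a FOS and a JUN protein, and ATF3 is a related stress-induced factor. ATF3 was at 32.5, 84.1, 61.0 and 29.2 CPM in HF and 107.1, 106.0, 86.9 and 116.4 CPM in LF. The LF libraries were close together and HF-2 at 84.1 nearly reached LF-3 at 86.9 CPM. The log2 fold change was -1.01 ± 0.31 (SE, edgeR adjusted p = 0.169; DESeq2 0.0322). FOS was at 33.4, 75.2, 40.6 and 34.0 CPM in HF and 95.1, 47.0, 76.4 and 62.2 CPM in LF. Its groups overlapped through HF-2, and the log2 fold change was -0.62 ± 0.30 (SE, edgeR adjusted p = 0.368).

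JUN was at 141.9, 288.2, 160.1 and 155.8 CPM in HF and 196.9, 239.4, 235.6 and 172.6 CPM in LF. HF-2 stood above all LF libraries and the other 3 HF libraries below them, giving -0.18 ± 0.23 (SE, edgeR adjusted p = 0.77). FOSL2 and JUND, members of the FOS and JUN families that are less sharply induced, had log2 fold changes of -0.092 ± 0.23 and 0.13 ± 0.21 (SE, edgeR adjusted p = 0.894 and 0.833). FOSL2 ran from 88.9 to 185.5 CPM in HF and from 106.8 to 152.8 in LF, and JUND from 27.1 to 42.2 and from 21.2 to 37.7 CPM. The sign of JUN and FOSL2 turned with the covariate for W-described transcripts (0.11 and 0.073), as did that of EGR1 (0.063).

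Of the genes that end the signal, DUSP1 encodes a phosphatase that switches off MAP kinases. It was at 119.9, 287.7, 95.4 and 140.7 CPM in HF and 280.0, 268.4, 275.7 and 230.1 CPM in LF. The 4 LF libraries were close together, 3 HF libraries lay below them and HF-2 lay above. The log2 fold change was -0.71 ± 0.30 (SE, edgeR adjusted p = 0.308) and -1.15 ± 0.16 without HF-2 (edgeR adjusted p = 0.0293). HF-2 was singled out here for its high value, so dropping it favours a lower HF level. With each library dropped in turn, DUSP1 passed in 1 fit of 8, the one without HF-2. The edgeR adjusted p was as high as 0.53, without HF-1. BTG2, an antiproliferative factor that promotes mRNA decay, ran from 69.3 to 170.1 CPM in HF and from 84.6 to 159.1 in LF (-0.11 ± 0.33 SE, edgeR adjusted p = 0.91). SOCS3, the inhibitor of JAK-STAT signalling, was at 6.18, 7.96, 24.4 and 10.7 CPM in HF and 7.56, 11.2, 11.3 and 10.8 CPM in LF. HF-3 alone carried its positive log2 fold change of 0.27 ± 0.39 (SE, edgeR adjusted p = 0.803), which was -0.31 without that library.

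CYR61 and CTGF encode secreted matrix-associated proteins and are targets of YAP and the TEAD factors. CYR61 was at 124.8, 250.2, 128.2 and 221.9 CPM in HF and 272.0, 178.0, 232.2 and 127.9 CPM in LF, with fully interleaved groups (-0.16 ± 0.29 SE, edgeR adjusted p = 0.844). The CTGF sum held 2 unlike rows. The row that the reference matches to CCN2 was at 148.2, 298.4, 117.1 and 193.2 CPM in HF and 468.9, 364.3, 345.9 and 127.8 CPM in LF. Of its LF libraries 3 were above all of HF, while LF-4 was near the lowest, and the log2 fold change was -0.79 ± 0.42 (SE, edgeR adjusted p = 0.788 over transcripts). The row described as CTGF-like, unmatched in the reference, ran from 176.2 to 604.7 CPM in HF and from 285.6 to 523.4 in LF (-0.019 ± 0.36 SE). Their sum, at -0.32 ± 0.32 (SE, edgeR adjusted p = 0.689), is therefore no value of a single gene.

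**Figure D4:**
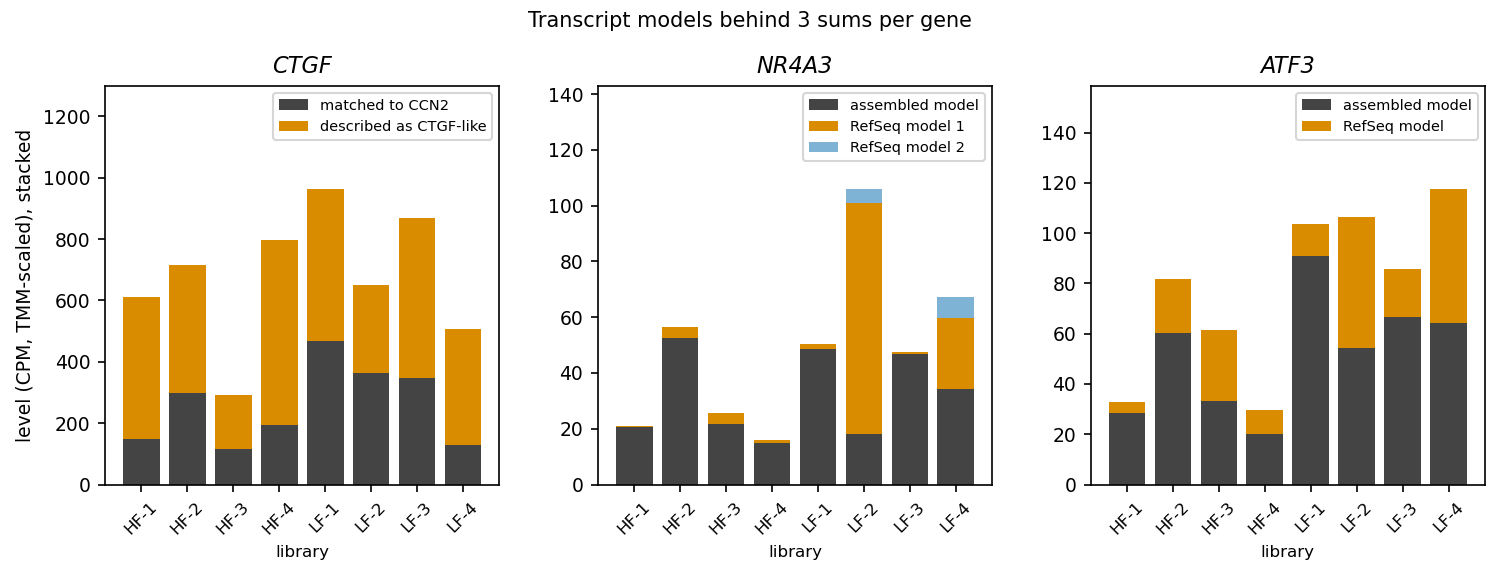
Levels in CPM with TMM scaling of the transcript models summed under CTGF, NR4A3 and ATF3, stacked for each of the 8 libraries. The CTGF-like row holds 43.9% to 75.8% of the CTGF counts, and 1 RefSeq model holds 78.3% of the NR4A3 counts in LF-2 and 37.7% in LF-4 but at most 14.9% in the other 6 libraries.

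Transcript models also shaped NR4A3. Its assembled model was at 20.8, 52.4, 21.8 and 14.8 CPM in HF and 48.6, 18, 46.9 and 34.4 CPM in LF (-0.43 ± 0.46 SE, edgeR adjusted p = 0.962 over transcripts). A RefSeq model was at 83.0 CPM in LF-2 and 25.3 in LF-4 and between 0.0834 and 4.04 CPM in the other 6 libraries. The highest LF level of the NR4A3 sum, in LF-2, came mostly from that model. For ATF3 the assembled and the RefSeq model had log2 fold changes of -0.96 ± 0.34 and -1.12 ± 0.68 (SE). FOSL2 had a model at 38.6 CPM in HF-3 and 14.4 in LF-2 that was listed at 0 in the other 6 libraries.

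The immediate early genes shared a pattern by library. In HF-2, 11 of the 16 were the highest of the HF libraries, where 30.9% of all genes were highest in HF-2, and in HF-1 8 of the 16 were the lowest, where 19.6% of all genes were. Averaged over the 16 genes, the log2 level centred on each gene's mean was -0.54, 0.27, -0.26 and -0.47 from HF-1 to HF-4 and 0.33, 0.30, 0.19 and 0.16 from LF-1 to LF-4. HF-2 thus stood with the LF libraries. Without HF-2, 8 of the 16 had groups that did not overlap, all lower in HF (FOS, JUN, ATF3, EGR1, NR4A2, NR4A3, MYC and DUSP1), beside 9.09% of all genes, and the median log2 fold change was -0.63. No other library, when left out, gave more than 3 lower without overlap. HF-2 was picked for its high values in these same genes, so leaving it out favours lower HF values among them. The 9.09% of all genes is therefore no matched background. Of the genes tested without HF-2, DUSP1 and GADD45G passed the threshold among the members, beside 0.716% of all genes.

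**Figure D5:**
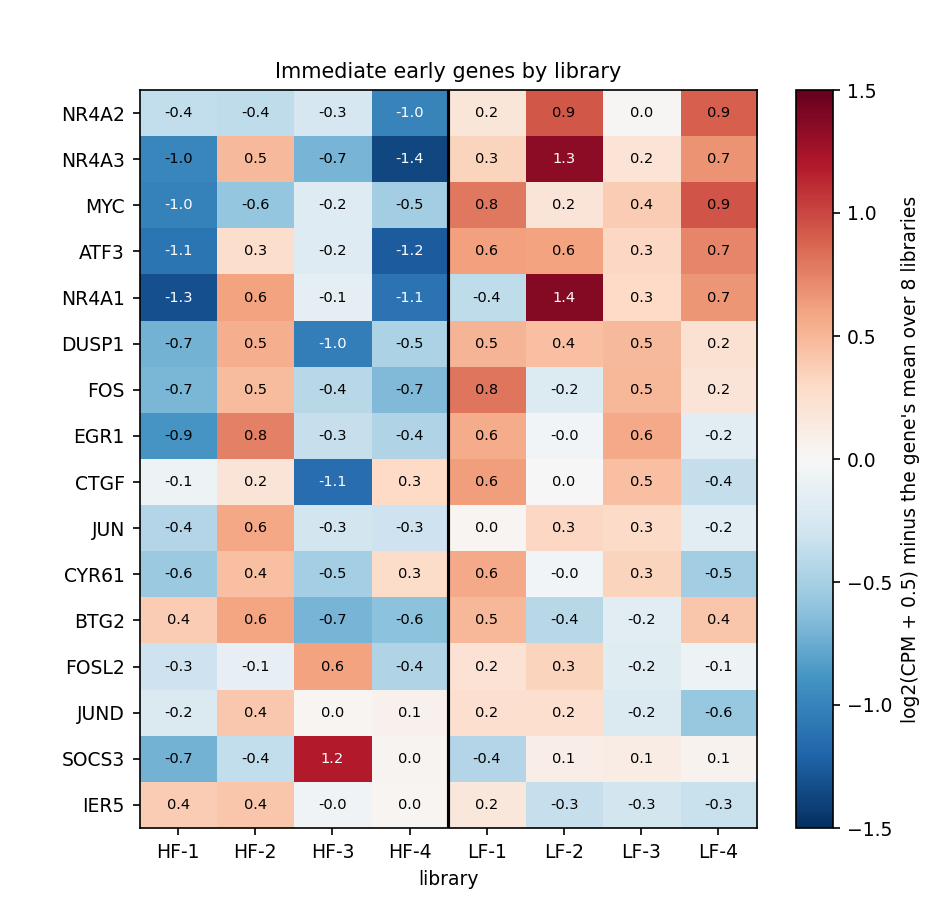
Log2(CPM + 0.5) of the 16 tested immediate early genes in each library, as the difference from the gene's mean over the 8 libraries, with genes ordered by log2 fold change and a line between HF and LF. HF-1, HF-3 and HF-4 are mostly below 0, and HF-2 is above 0 for most genes and below it for NR4A2, MYC, FOSL2 and SOCS3.

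Summed endothelial markers, 7 of 7 analysed, were at 4029.5, 6074.5, 2986.4 and 4267.4 CPM in HF and 6507.4, 5058.5, 7218.1 and 5415.1 CPM in LF. As in the immediate early mean, HF-2 lay within the LF range, and HF-1, HF-3 and HF-4 lay below every LF library. The lowest HF library was HF-3 and the highest LF library LF-3, where the immediate early mean had HF-1 and LF-1. By gene, 4 of the 7 were negative (median log2 fold change -0.031) and 2 were lower at an unadjusted p under 0.05 in edgeR. When a library was left out, 3 to 7 of the 7 were negative. All 7 were negative without HF-2 (median -0.21) and also without LF-4 (median -0.16). Summed smooth muscle markers, 4 of 6 analysed, were at 341.0 to 458.0 CPM in HF, 783.6 to 915.1 in LF-1 to LF-3 and 347.2 in LF-4. By gene, 3 of these 4 were negative (median log2 fold change -0.63), and MYOCD went the other way at 0.94. The part of these cells in the immediate early values was not tested. HF-2 and LF-1 were also the shallowest libraries, and the median of the immediate early genes was -0.23 without LF-1, with 11 of 16 negative.

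LF-4 gives a comparison of HF with an LF library that shares the W-described transcripts. ATF3, NR4A1, NR4A2, NR4A3, MYC, GADD45A, GADD45B, GADD45G and HSP90B1 were higher in LF-4 than in every HF library. JUND, IER5, HSPA8, HSPA2, HSPB1, BAG3, DNAJB9 and ATF4 were lower in LF-4 than in every HF library, and the other 12 members lay within the HF range. Of all genes 27.7% were higher and 29.6% lower in LF-4 than in every HF library, so these 9 and 8 of the 29 members are near the background. MYC in LF-4 was 2.86 times, NR4A2 3.09 times and HSPA2 0.426 times the HF mean. EGR1, JUN and FOS lay within the HF range. With the covariate the median of the immediate early genes was -0.17, against -0.34 in the reported fit. FOSL2, JUN, EGR1, CYR61 and CTGF turned from negative to positive. The median was 0.073 for the AP-1 and ATF genes and -1.09 for the other transcription factors. For the genes that end the signal or encode secreted proteins it was 0.19. Sex and fat group cannot be told apart in the comparison of HF with LF-1 to LF-3.

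Beyond the members, 33 other immediate early genes were tested, of which 24 were negative (median -0.30). By edgeR 1 was called lower and 0 higher, beside 0.352% and 0.295% of all genes. At an unadjusted p under 0.05, 11 were lower and 0 higher, beside 7.51% and 7.49% of all genes. The called gene was KLF4, on chromosome Z, which encodes a zinc finger factor of stem cells and early fat cell formation. It was at 8.0, 9.57, 8.89 and 7.04 CPM in HF and 21.8, 21.1, 14.4 and 15 CPM in LF (-1.11 ± 0.19 SE, edgeR adjusted p = 0.0419) and passed in 1 of 8 fits that left out a library. The groups did not overlap for 7 of the 33, all lower in HF: KLF4, CSRNP1, NFIL3, RGS2, DUSP5, BTG1 and CEBPD. Of all genes, 4.64% were lower in HF without overlap. NFIL3, also on chromosome Z, ran from 110.8 to 132.6 CPM in HF. In LF it was at 400.2 CPM in LF-2 and at 137.4 to 186.3 in the other libraries. CSRNP1, a nuclear factor induced by axin, averaged 35.7 ± 15.5 CPM in HF against 88.2 ± 22.8 in LF (edgeR adjusted p = 0.0858). CEBPD, a factor that acts early in fat cell formation, was at 4.14 ± 1.49 and 10.1 ± 2.57 CPM (SD, n = 4 each; edgeR adjusted p = 0.0893). In both genes every HF library was below every LF library.

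Of 26 tested kinases and factors that switch immediate early genes on, 0 were called by edgeR, and the median log2 fold change was 0.064. At an unadjusted p under 0.05, 1 was higher and 1 lower, beside 7.49% and 7.51% of all genes. TEAD1, the DNA-binding partner of YAP, averaged 149.6 ± 3.92 CPM in HF against 219.2 ± 58.1 in LF, and every LF library was above every HF library (SD, n = 4 each; edgeR adjusted p = 0.19). RPS6KA2, a kinase downstream of ERK, was at 12.9 ± 3.25 and 8.59 ± 2.19 CPM (edgeR adjusted p = 0.314).

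Among the chaperones, HSPA2 had the largest difference. It belongs to the HSP70 family, carries HSP70 as a synonym in the reference and is known in mammals for its role in sperm formation. It was at 1387.1, 1229.7, 1602.7 and 1976.6 CPM in HF and 747.9, 948.3, 1026.9 and 659.3 CPM in LF. All HF libraries were above all LF libraries, a 1.83-fold difference that did not pass (edgeR adjusted p = 0.0894) but passed in DESeq2 (adjusted p = 0.0015). The edgeR adjusted p ran from 0.0824 to 0.218 over the 8 fits that left out a library. HSPA8, the constitutive member of the same family, was at 913.6, 1135.7, 1320.2 and 1482.4 CPM in HF and 815.7, 1442.5, 976.3 and 783.2 CPM in LF (0.27 ± 0.23 SE, edgeR adjusted p = 0.626). LF-2 was the only LF library in the upper part of the HF range.

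HSPA2 over HSPA8, as a ratio of FPKM, was 1.45, 1.03, 1.16 and 1.27 in HF and 0.875, 0.627, 1.0 and 0.803 in LF. The ratio was higher in every HF library, by little between HF-2 and LF-3, and it was chosen after its values were seen and not tested. These genes resemble each other in sequence, and how the authors' counting shared reads between them is not stated, so their separate levels are uncertain. The same holds for HSP90AA1 and HSP90AB1, the inducible and the constitutive cytosolic HSP90, where HSP90AB1 was listed at 0 to 1.38 CPM.

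HSP90AA1 was at 1917.8, 1937.5, 2249.8 and 2505.3 CPM in HF and 1252.5, 2503.7, 1625.4 and 1930.0 CPM in LF. LF-2 lay at the upper end of the HF range, and the log2 fold change was 0.24 ± 0.22 (SE, edgeR adjusted p = 0.664). BAG3, a partner of HSP70 in the removal of damaged proteins, was at 30.9, 34.8, 47.9 and 52.3 CPM in HF and 32.0, 37.7, 37.1 and 29.5 CPM in LF (0.28 ± 0.19 SE, edgeR adjusted p = 0.515). DNAJA1, a J-domain partner of HSP70 on chromosome Z, was at 71.2, 65.3, 100 and 93.3 CPM in HF and 81.7, 109.0, 82.0 and 68.3 CPM in LF. Its groups were interleaved (-0.048 ± 0.18 SE, edgeR adjusted p = 0.933). Of the 2 members on chromosome Z, GADD45G was called and DNAJA1 was not, and the part of that chromosome was not tested.

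HSPH1, which exchanges nucleotides on HSP70, averaged 53.3 ± 22.9 CPM in HF against 49.3 ± 18.2 in LF (SD, n = 4 each), with 0.11 ± 0.34 on the log2 scale (SE, edgeR adjusted p = 0.914). HSPB1, a small heat shock protein, was at 1.79 ± 0.41 and 2.42 ± 1.21 CPM (-0.44 ± 0.45 SE, edgeR adjusted p = 0.699), with LF-4 lowest of all at 0.77 CPM. By library, HF-3 (3 genes) and HF-4 (4 genes) held the highest HF value of the 7 chaperones and LF-2 the highest LF value of 4. LF-4 was the lowest LF library for 5 of the 7. Of all genes, 29% were highest in HF-3 and 20.8% in HF-4 among HF, and 23.8% were highest in LF-2 and 31.0% lowest in LF-4 among LF.

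Of 44 other chaperones and heat shock factors tested, 0 were called by edgeR, and the median log2 fold change was -0.033. At an unadjusted p under 0.05, 4 were higher and 1 lower, beside 7.49% and 7.51% of all genes. FKBP5, a co-chaperone of HSP90 that glucocorticoid receptors induce, was at 3.57, 2.85, 4.31 and 5.75 CPM in HF and 10.7, 17.9, 13.5 and 46.6 CPM in LF. Every LF library was above every HF library and LF-4 was far above the others (-2.42 ± 0.47 SE, edgeR adjusted p = 0.0557). HSF4, a heat shock factor known from the lens, was at 20.8, 26.1, 31.1 and 26.5 CPM in HF and 13.2, 16.1, 12.8 and 7.13 CPM in LF (1.08 ± 0.24 SE, edgeR adjusted p = 0.0839). The heat shock factors HSF1 and HSF2 were at -0.037 ± 0.17 and -0.048 ± 0.14 on the log2 scale (SE, edgeR adjusted p = 0.943 and 0.908). They were named after their values were seen. HSF3, another heat shock factor, was not analysed here.

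None of the 3 ER stress members passed the test, and the groups overlapped for each. DNAJB9, a J-domain protein of the ER, was at 137.6, 130.2, 130.8 and 178.8 CPM in HF and 97, 139.7, 109.5 and 100 CPM in LF. Only LF-2 reached the HF range, and the log2 fold change was 0.37 ± 0.16 (SE, edgeR adjusted p = 0.313). ATF4, the transcription factor at the end of the integrated stress response, was at 184.5, 172.8, 235.9 and 203.8 CPM in HF and 201.9, 163.6, 167.6 and 161.3 CPM in LF. LF-1 alone lay within the HF range (0.20 ± 0.14 SE, edgeR adjusted p = 0.529). HSP90B1, the HSP90 of the ER, was at 400.0, 378.6, 597.7 and 528.5 CPM in HF and 339.7, 634.9, 492.5 and 714.3 CPM in LF, with LF on both sides of HF (-0.20 ± 0.24 SE, edgeR adjusted p = 0.761).

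Among 29 tested genes of the unfolded protein response and ER folding, 0 were called by edgeR, and the median was -0.035. At an unadjusted p under 0.05, 2 were higher and 0 lower, beside 7.49% and 7.51% of all genes. DERL2, which helps export misfolded proteins from the ER, was at 67.5, 63.3, 62.6 and 66.6 CPM in HF and 51.7, 46.4, 40.4 and 49.0 CPM in LF. Its groups were far apart for their spread, with 0.47 ± 0.11 on the log2 scale (SE, edgeR adjusted p = 0.102). EDEM2, which marks misfolded glycoproteins, was at 31.8 ± 7.64 and 22.5 ± 4.29 CPM (SD, n = 4 each; edgeR adjusted p = 0.271).

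In the integrated stress response list 18 genes were tested, 0 were called by edgeR, and the median was 0.053. At an unadjusted p under 0.05, 4 were higher and 0 lower, beside 7.49% and 7.51% of all genes. SESN2, a sestrin that restrains mTORC1 when leucine is short, was at 3.44, 3.87, 5.61 and 3.91 CPM in HF and 1.77, 1.08, 1.3 and 0.729 CPM in LF. All HF libraries were above all LF libraries (1.81 ± 0.34 SE, edgeR adjusted p = 0.0534). VLDLR, the very low density lipoprotein receptor, on chromosome Z, was at 95.8, 74.7, 92.2 and 89.3 CPM in HF and 66.2, 49.5, 47.6 and 41.9 CPM in LF, also without overlap (0.78 ± 0.16 SE, edgeR adjusted p = 0.066).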

How the data were processed

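Messenger RNA of 8 abdominal fat libraries, 4 HF and 4 LF by their titles, was read on an Illumina HiSeq, as the protocols in the labels say. The authors deposited estimated counts and FPKM per transcript and library, per the file headers, under RefSeq accessions or assembled models. The submitters' processing notes list Bowtie2 2.2.8 beside TopHat2 2.1.1, with no role stated. Quantifier, genome build and strand setting: not given in the sources used here. Reads of a gene and of one antisense to it may therefore be mixed. The lncRNA table was not used here.

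Estimated counts were summed per symbol, and the sums were then rounded to whole numbers. The 2137 rows without a symbol (0.839% to 0.965% of counts) were left out. Of the 50 member rows 12 were assembled models and 38 RefSeq accessions, 28 of which matched the reference gene table (assembly IASCAAS_PekinDuck_T2T, used for names and chromosomes) once versions were dropped. The test was edgeR 4.0.16's quasi-likelihood test (R 4.3.3) with TMM scaling, filterByExpr and group as the only term; standard errors are the size of the log2 fold change over the root of F, and levels are CPM with TMM scaling. The fit was also run on transcripts. FPKM, summed per symbol, was used for levels between genes.

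Alternatives were upper-quartile scaling, the size factors of DESeq2 1.42.0 within edgeR, DESeq2 itself, limma 3.58.1 on log2(FPKM + 1) or log2(FPKM + 0.1) for genes of mean FPKM 0.5 or more, a fit without the low-count filter, a block for the library number, a surrogate variable from sva 3.50.0, a covariate for W-described transcripts (at least 100 counts in a library) and leaving out each library. The members, the lists of related genes and markers and the tests were chosen with earlier results of these data known. Described in full were members that passed or whose groups did not overlap, the 2 with the smallest p and the 2 with the highest level in each class, and those on chromosome Z; of a list of related genes, up to 4 that passed or else the 2 with the smallest p. Other genes were named after their values were seen.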

Additional observations from a re-analysis of the deposited data

Results flagged for a closer look

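Of 58 groups of 4 libraries (29 genes in HF and in LF), 4 had a library whose gap to its nearest neighbour on the log2(CPM + 0.5) scale exceeded Dixon's critical share of the group's range; chance gives this in about 1 group in 20. JUN in HF-2 was at 288.2 CPM, with the other HF libraries from 141.9 to 160.1. IER5 in LF-1 was at 2.33 CPM, with the other LF libraries from 1.48 to 1.58. SOCS3 in LF-1 was at 7.56 CPM, below the other LF libraries at 10.8 to 11.3. ATF4 in LF-1 was at 201.9 CPM, with the other LF libraries from 161.3 to 167.6.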

How the results depend on the processing

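Of 493 log2 fold changes of members under the alternatives, 457 kept their direction and side of the threshold, 8 passed newly, 4 no longer passed and 24 changed sign, in 11 of 29 members; the causes were not tested. The count of members lower in HF was 1 in the reported fit, 4 in DESeq2 (GADD45G, MYC, NR4A2 and ATF3), 2 in limma at either pseudocount (GADD45G and MYC), and 0 to 2 when a library was left out; DESeq2 called 1 member higher (HSPA2) against 0. Over all genes the count was 68, with 606 in DESeq2, 128 with the covariate for W-described transcripts and 2 to 92 when a library was left out. With the replicate block, 0 members and 9 genes in all passed, and GADD45G was at -2.68 (edgeR adjusted p = 0.0951). Same-numbered libraries deviated from their group means with correlations of -0.000761, -0.215, -0.14 and 0.028. Libraries of different numbers gave -0.101 to 0.185. The labels do not say whether the numbers pair the libraries, and these few correlations cannot decide it.

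With the W covariate the sign turned for FOSL2 (0.073), JUN (0.11), EGR1 (0.063), CYR61 (0.50), CTGF (0.27), HSPH1 (-0.35), DNAJA1 (0.27) and HSPB1 (1.21). When a library was left out, the sign turned within the ranges -0.37 to 0.031 for FOSL2, -0.02 to 0.24 for JUND, -0.36 to 0.072 for BTG2, -0.31 to 0.49 for SOCS3, -0.35 to 0.014 for CYR61, -0.13 to 0.31 for HSPH1 and -0.15 to 0.093 for DNAJA1. Depth limits the genes near 1 CPM, such as EGR2, IER5 and NR4A2, and values from counts carry counting error besides.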
